A study of Mus musculus with 40 samples.

Results

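The Hi-C boundary lists of mouse chromosome 14 held 400 insulation boundaries for wild-type thymocytes and 533 for thymocytes without the CTCF binding site at enhancer Ea, called EACBE in the labels. A wild-type boundary was counted as shared when its bin started within 20000 bases of the start of a boundary in the EACBE-/- list. By this rule 238 of the 400 wild-type boundaries were shared, or 59.5% (95% Wilson interval 54.6 to 64.2%). For comparison, 24.3% of all 6012 bins of 20000 bases between the first and the last start of either list lay that close to an EACBE-/- boundary. The shared boundaries were chosen by the measured boundary positions in both lists, so their number, places and scores are a description and carry no test.

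The study examined how the CTCF site at Ea acts in the rearrangement of the T cell receptor alpha locus, Tcra. Both Hi-C libraries came from C57BL/6 mice aged 4 to 8 weeks, from CD3-stimulated thymus, and the mice of both groups lacked Rag1. The wild type was EACBE+/+Rag1-/- and the mutant was EACBE-/-Rag1-/-, with 1 Hi-C library listed for each in the sample labels. The design text of the series speaks of duplicates, and whether a list pools more than 1 preparation is not stated, so no spread between replicates can be had. Per the treatment protocol, mice aged 3 weeks received 150 µg of anti-CD3ε antibody (clone 2C11) into the abdomen, and the thymus was removed after 10 days to obtain CD4+CD8+ (double-positive) thymocytes. Rag1 encodes part of the recombinase that joins receptor segments, so these thymocytes carry no rearranged receptor genes, and antibody treatment stands in for the missing receptor signal. The labels do not say how many mice went into each library. The lists hold positions and scores only. They give neither expression values nor contact counts, so the labelled cell type and genotype could not be checked against them and the sequencing depth behind a score is unknown.

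Insulation boundaries are places that few chromatin contacts cross, and they separate neighbouring topologically associating domains. Many lie where CTCF, a DNA-binding protein, stops cohesin as it extrudes chromatin loops, and others lie at active genes. In double-positive thymocytes Ea, which sits between the constant region gene Trac and Dad1, drives transcription and recombination of Tcra. A long array of Trav segments lies on the far side of the Traj segments. The T cell receptor delta genes lie inside Tcra.

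The promoters printed here were chosen because they lie in shared boundary bins that the results turn on. Each is a RefSeq promoter window of GRCm38.p6, the assembly of mm10, with 250 bases before and 50 bases after an annotated start, written 5′ to 3′ on the strand of the gene. Capitals mark the GC box (GGGCGG, a site of Sp1-type factors), the CCAAT box (CCAAT, bound by NF-Y) and the ETS core (CCGGAAG, bound by ETS factors), searched on both strands, so that a reverse match reads in its complement. Dad1, chr14:54253880-54254179 on the minus strand, is the promoter in the shared boundary next to Trac, and the Abhd4 start lies 200 bases away on the other strand. Tsc22d1, chr14:76488186-76488485 on the plus strand, and Olfr749, chr14:50744275-50744574 on the minus strand, are the only promoters of the table in the 10 shared bins with the highest wild-type scores. Eaf1, chr14:31494829-31495128, Btd, chr14:31640807-31641106, and Oxnad1, chr14:32085478-32085777, all on the plus strand, belong to gene pairs that start back to back in shared bins. Ripk3, chr14:55788808-55789107 on the minus strand, is a thymocyte gene of the fixed lists that starts in a shared bin.
Dad1: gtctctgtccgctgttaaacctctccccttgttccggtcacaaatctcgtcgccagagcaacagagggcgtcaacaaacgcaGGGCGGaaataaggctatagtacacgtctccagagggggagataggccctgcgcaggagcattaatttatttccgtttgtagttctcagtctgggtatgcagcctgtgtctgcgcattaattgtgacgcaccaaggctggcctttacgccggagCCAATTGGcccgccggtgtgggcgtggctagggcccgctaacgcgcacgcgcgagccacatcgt
Tsc22d1: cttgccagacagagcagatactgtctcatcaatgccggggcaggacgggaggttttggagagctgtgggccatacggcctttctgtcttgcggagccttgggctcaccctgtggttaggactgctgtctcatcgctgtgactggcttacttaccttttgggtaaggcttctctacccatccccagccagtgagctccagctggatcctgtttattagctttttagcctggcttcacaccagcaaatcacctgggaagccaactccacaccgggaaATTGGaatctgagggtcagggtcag
Olfr749: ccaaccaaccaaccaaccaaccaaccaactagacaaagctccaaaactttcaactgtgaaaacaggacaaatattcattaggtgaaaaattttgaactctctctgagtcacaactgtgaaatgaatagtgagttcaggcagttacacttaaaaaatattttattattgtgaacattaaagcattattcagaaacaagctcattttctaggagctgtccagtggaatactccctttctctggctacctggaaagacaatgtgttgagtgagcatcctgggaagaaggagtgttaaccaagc
Eaf1: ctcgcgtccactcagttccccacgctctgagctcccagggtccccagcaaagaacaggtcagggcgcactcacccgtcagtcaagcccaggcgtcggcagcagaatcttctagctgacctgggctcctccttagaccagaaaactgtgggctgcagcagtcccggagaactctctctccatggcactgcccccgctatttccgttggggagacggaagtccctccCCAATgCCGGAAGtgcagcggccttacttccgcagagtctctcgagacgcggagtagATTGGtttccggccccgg
Btd: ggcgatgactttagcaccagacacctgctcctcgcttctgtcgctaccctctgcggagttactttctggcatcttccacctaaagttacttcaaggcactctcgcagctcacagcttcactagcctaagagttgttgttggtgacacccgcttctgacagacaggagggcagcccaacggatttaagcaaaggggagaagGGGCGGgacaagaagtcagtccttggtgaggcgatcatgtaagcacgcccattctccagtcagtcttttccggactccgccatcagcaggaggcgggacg
Oxnad1: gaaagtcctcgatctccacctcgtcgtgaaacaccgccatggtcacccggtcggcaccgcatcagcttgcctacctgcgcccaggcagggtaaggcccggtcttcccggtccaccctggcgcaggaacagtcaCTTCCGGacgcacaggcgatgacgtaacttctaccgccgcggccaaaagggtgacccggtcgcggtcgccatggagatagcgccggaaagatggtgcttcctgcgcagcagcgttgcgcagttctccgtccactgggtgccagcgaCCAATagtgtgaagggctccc
Ripk3: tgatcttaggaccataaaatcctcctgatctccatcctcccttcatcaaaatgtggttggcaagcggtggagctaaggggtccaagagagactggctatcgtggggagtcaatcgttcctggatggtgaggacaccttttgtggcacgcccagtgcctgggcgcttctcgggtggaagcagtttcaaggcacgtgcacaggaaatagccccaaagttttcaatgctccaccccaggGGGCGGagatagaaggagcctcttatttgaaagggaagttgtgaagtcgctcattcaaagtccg

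These windows differed in base composition. Oxnad1 held 29 CpG dinucleotides in 300 bases, Dad1 24, Eaf1 19 and Btd 14, against a median of 9 over 863 windows of protein-coding genes on the chromosome. Ripk3 held 10, Tsc22d1 6 and Olfr749, an olfactory receptor gene, none. The Dad1 window carried 1 GC box and a CCAAT box read on both strands. In the Eaf1 window a CCAAT box stood 1 base from an ETS core, and in the Oxnad1 window both motifs were present but far apart. Olfr749 held none of the 3 motifs.

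Boundary scores were compared as the authors gave them, in their own units, in which a higher score marks a stronger boundary in the usual use of such scores. No score in either list lay under 0.3, so weaker boundaries are not in them. The 238 shared boundaries had a median score of 0.634 in wild type (quartiles 0.441 and 0.893, range 0.301 to 2.38) and of 0.682 in EACBE-/- (quartiles 0.482 and 1.00, range 0.312 to 2.71). The 162 wild-type boundaries without a partner had a median of 0.399, and the 296 EACBE-/- boundaries without one had a median of 0.412. Shared boundaries thus had the higher median score in each list, though the ranges overlapped. In wild type the unshared scores reached 3.06, above the shared maximum of 2.38. In EACBE-/- the unshared scores reached only 1.35, against 2.71 for shared boundaries, so the highest scores of that list were all at shared boundaries.

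The share of boundaries found in both genotypes was higher at higher scores in each list. From the lowest to the highest score quartile of the wild-type list, 36, 40, 77 and 85% of 100 boundaries each were shared. In the EACBE-/- list, 21.6, 23.3, 48.1 and 85.0% of 134, 133, 133 and 133 boundaries lay within 1 bin of a wild-type start, against 18.3% of all bins. The increase came mainly between the second and the fourth quartile group, and the lowest group of the EACBE-/- list stood close to the share over all bins, with a Wilson interval of 15.5 to 29.4%. In all, 237 of the 533 EACBE-/- boundaries, 44.5%, were shared.

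**Figure D1:**
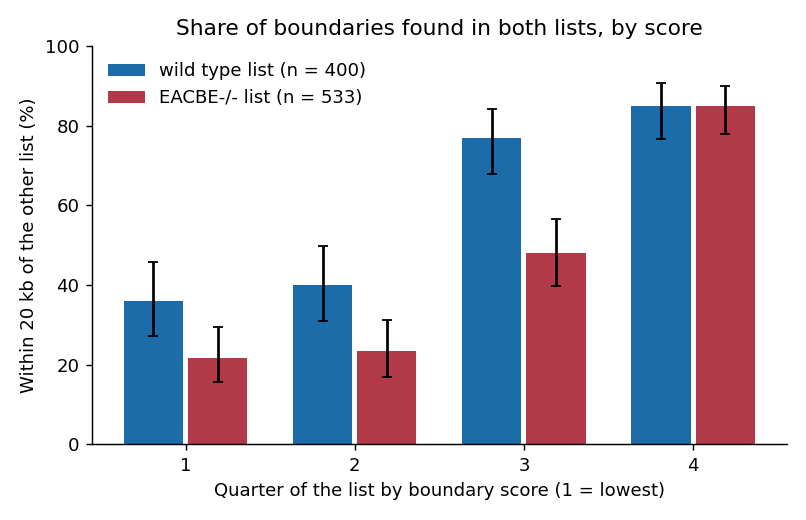
Share of boundaries in each list that lie within 20 kb of a boundary of the other list (y axis, percent), for quartile groups of the boundary score from lowest (1) to highest (4), with 95% Wilson intervals that cover counting error only. In the top group 85.0% of both lists were shared, and in the lowest group 36% of the wild-type and 21.6% of the EACBE-/- list.

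The scores of a shared boundary were similar in the 2 genotypes, with a Pearson r of 0.73 and a Spearman rho of 0.77 over the 238 boundaries, which share their libraries and the score minimum. The difference, EACBE-/- minus wild type, had a median of 0.0555 (quartiles -0.0629 and 0.184), with an order-statistic interval of 0.0271 to 0.0790 that covers the spread over boundaries only. The score was higher in EACBE-/- at 147 shared boundaries (61.8%) and lower at 91. When every wild-type boundary, shared or not, was set against the nearest EACBE-/- boundary at any distance, 64% had the higher score in EACBE-/-, a share close to that of the shared boundaries. At 99 shared boundaries the scores lay within 0.1 of each other, and at 13 they lay more than 0.5 apart. With 1 library for each genotype, a difference due to genotype and one due to the library cannot be told apart.

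**Figure D2:**
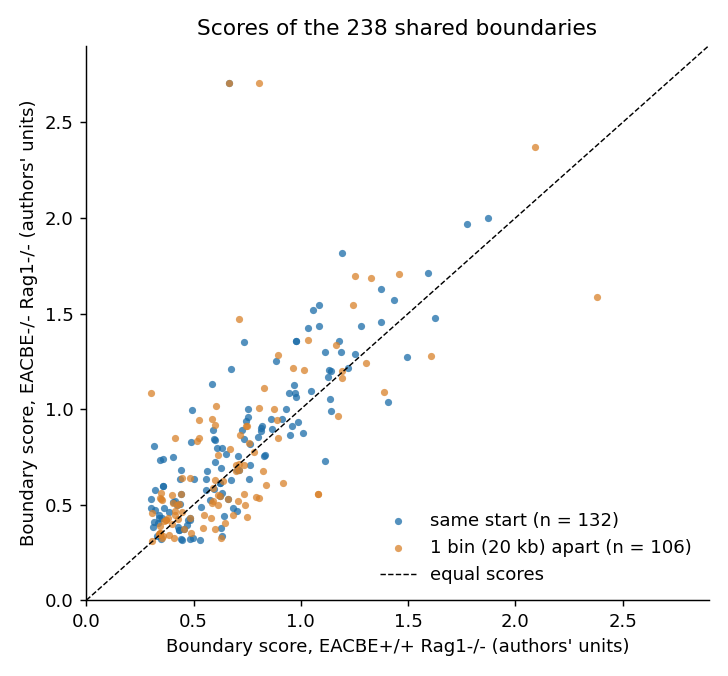
Boundary score in EACBE-/-Rag1-/- (y axis) against EACBE+/+Rag1-/- (x axis), both in the authors' units, for the 238 shared boundaries; blue points have the same start in both lists (n = 132), orange points lie 1 bin apart (n = 106), and the dashed line marks equal scores. Most points follow the line, and 3 neighbouring bins near the start of the listed region, which have the same EACBE-/- partner, sit far above it at 2.71.

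The start was identical at 132 shared boundaries, 1 bin higher in EACBE-/- at 55 and 1 bin lower at 51, so displacement had no preferred side. Positions and genes given for a shared boundary are those of its wild-type bin, and its EACBE-/- score is that of the partner. The median wild-type score was 0.655 at identical starts and 0.619 at starts 20000 bases apart, and the median EACBE-/- score was 0.757 and 0.574. The median difference, EACBE-/- minus wild type, was 0.0771 at identical starts, where 87 of 132 scored higher in EACBE-/-, and 0.0111 at starts 1 bin apart, where 60 of 106 did. Just outside the rule, 40 wild-type boundaries lay 40000 bases from the nearest EACBE-/- start, with a median score of 0.446, and 27 lay 60000 bases away, with a median of 0.399. Scores of paired boundaries were more strongly correlated at identical starts (r = 0.79, n = 132) than 1 bin apart (r = 0.66, n = 106). The EACBE-/- boundary at 6.94 Mb, which scored 2.71, far above its wild-type partners, entered both groups, and the second more than once. A correlation does not measure how far apart the paired scores lie.

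Neighbouring bins often carried exactly the same score, so that entries of a list are not independent of each other. In the wild-type list 108 boundaries stood in such runs, of which 43 were shared, and the 400 entries formed 346 runs. Counted by run, 224 of 346 were shared, or 64.7%. In addition, 10 EACBE-/- boundaries were the nearest partner of more than 1 wild-type boundary, so that the 238 shared boundaries used 227 distinct partners.

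The 10 shared boundaries with the highest wild-type scores lay between 1.43 and 2.38 in wild type and between 1.27 and 2.37 in EACBE-/-, all above the upper quartile of the shared boundaries in both genotypes. In EACBE-/- 6 of the 10 scored higher and 4 lower, and 8 of them were among the 20 highest EACBE-/- scores of shared boundaries. The highest, at 41.48 Mb, scored 2.38 in wild type and 1.58 in EACBE-/- and overlapped no gene. The next, at 34.82 Mb in wild type, covered an end of Grid1, a glutamate receptor delta subunit of nerve cells, and scored 2.09. Its EACBE-/- partner, at 34.80 Mb, scored 2.37. A boundary at 14.14 Mb scored 1.87 and 2.00, its nearest protein-coding gene was the olfactory receptor gene Olfr720, and Psmd6, which encodes a proteasome subunit, lay 19.1 kb from it. The bin at 20.10 Mb scored 1.78 and 1.97, and its nearest protein-coding gene was Saysd1.

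The other 6 lay in or beside genes of several kinds. At 66.34 Mb the bin held part of Stmn4, a regulator of microtubules in nerve cells, with scores of 1.63 in wild type and 1.48 in EACBE-/-. At 66.14 Mb it spanned the neighbouring ends of Chrna2, a nicotinic acetylcholine receptor subunit, and Ptk2b, a tyrosine kinase related to focal adhesion kinase, with 1.59 and 1.71. The wild-type bin with the Olfr749 promoter printed above, at 50.74 Mb, scored 1.60, and its EACBE-/- partner, at 50.76 Mb, scored 1.28. Rubcnl, a regulator of autophagy, covered the bin at 75.02 Mb, which scored 1.49 and 1.27. Near Selenok, a selenoprotein of the endoplasmic reticulum, the bin at 29.94 Mb scored 1.46 and 1.71. The bin with the Tsc22d1 promoter, a gene for a leucine zipper protein, lay at 76.48 Mb and scored 1.43 and 1.57. Of these 10 bins, 4 overlapped no annotated gene and 2 held a start of the promoter table. Over all bins, 63.5% were overlapped by a gene and 15.4% held a start, so these counts do not set the 10 bins apart.

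At the other end, the 5 shared boundaries with the lowest wild-type scores lay between 0.301 and 0.308, just above the lists' minimum. They were at 107.58, 92.20, 73.62, 93.10 and 46.34 Mb, and their EACBE-/- scores were 0.485, 1.08, 0.531, 0.457 and 0.312. All 5 scored higher in EACBE-/-, a direction that picking scores next to a fixed minimum largely sets. None held a gene start of the promoter table, which only 15.4% of all bins did. The bin at 93.10 Mb lay in Pcdh9, which encodes a protocadherin of nerve cells.

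The largest differences upward were at 3 bins side by side at 6.92, 6.94 and 6.96 Mb. Their wild-type scores were 0.804, 0.664 and 0.664, and all 3 were paired with 1 EACBE-/- boundary at 6.94 Mb that scored 2.71, so they amount to 1 observation. The next were at 92.20 Mb, with 0.303 in wild type and 1.08 in EACBE-/-, and at 105.06 Mb, with 0.713 and 1.47, where Rbm26 was the nearest protein-coding gene. The largest difference downward was at 41.48 Mb, the highest wild-type score among the shared boundaries. At 24.70 and 24.74 Mb, a pair of entries with the same score and the same partner, the score was 1.08 in wild type and 0.556 in EACBE-/-. At 46.72 Mb, near Cdkn3, a phosphatase of the cell cycle, it was 1.11 and 0.727. At 16.46 Mb, in Rarb, a retinoic acid receptor gene, it was 1.41 and 1.04.

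Tcra spans 1796 kb from the start of Trav1 to the end of Trac, chr14:52427967-54224198. From 1 Mb before Trav1 to 1 Mb after Trac the wild-type list held 15 boundaries, of which 12 were shared. The EACBE-/- list held 13 there, of which 11 were shared. The EACBE-/- partner of the wild-type boundary at 55.20 Mb, at 55.22 Mb, fell past the window's edge, hence 11 and not 12. The unshared wild-type entries were all in runs of equal score. The entry at 51.82 Mb had the same score as the shared entry at 51.86 Mb, and those at 53.80 and 53.84 Mb were tied. Outside the Trav array, the wild-type bin at 51.70 Mb held the start of Gm5800 and scored 0.382, and its EACBE-/- partner, at 51.68 Mb, scored 0.431. The bin at 51.86 Mb, near Mettl17, a gene for a mitochondrial protein, scored 1.37 and 1.45. At 52.06 Mb the bin reached into Hnrnpc, which encodes an RNA-binding protein, and scored 0.588 and 0.889. The last shared boundary before the array, at 52.36 Mb, lay over the olfactory receptor gene Olfr1512, had its centre 58.0 kb before the start of Trav1 and scored 0.943 and 1.08. These boundaries outside the array were at the same bin or 1 bin away, which the rule for sharing requires. Each scored higher in EACBE-/-, as did 61.8% of all shared boundaries.

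Within the array, the shared boundary at 52.62 Mb held Trav5-1 and Trav6-1 and scored 0.633 in wild type and 0.337 in EACBE-/-. From there neither list held another boundary for 1060 kb, a stretch with 94 V segments and no protein-coding gene. The next shared boundary, at 53.68 Mb, held Trav4-4-dv10 and scored 0.588, and its EACBE-/- partner, 1 bin nearer to Trac, scored 0.517. Beyond it the wild-type list had 2 further entries, at 53.80 and 53.84 Mb, that were not shared. They had the same score, 0.324, close to the lists' minimum, and so form 1 run. The next shared boundary, at 54.06 Mb, held Trdv4 and scored 0.437 and 0.632. The stretch from there to the next shared boundary held all 53 J segments and no boundary in either list.

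The boundary next to Ea lay at 54.24 Mb in wild type and 1 bin farther from Trac, at 54.26 Mb, in EACBE-/-. Its wild-type bin began 15.8 kb after the end of Trac and held the starts of Dad1, which encodes a subunit of the oligosaccharyltransferase complex, and Abhd4, a lipase gene. It scored 1.30 in wild type, rank 16 among the 238, and 1.24 in EACBE-/-. This difference of -0.0625 lay only just inside the lower quartile of all shared boundary differences, -0.0629, and exceeded 25.2% of them. A displacement by 1 bin occurred at 106 of the shared boundaries. Farther on, the wild-type bin at 54.70 Mb held Cebpe, a transcription factor of granulocytes, and scored 0.587. Its EACBE-/- partner, at 54.72 Mb, scored 0.951. The bin at 54.84 Mb, over Rnf212b and the homeobox gene Homez, scored 0.631 and 0.559. The last of the window, at 55.12 and 55.20 Mb, overlapped no gene and scored 0.532 and 0.343 in wild type, against 0.315 and 0.388 in EACBE-/-.

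Of the 12 differences around the locus, 7 were positive and 5 negative, 5 lay inside the quartiles of all 238 differences and 7 outside. The lowest, -0.296 at Trav5-1 and Trav6-1, exceeded only 3.78% of the 238, and the highest, 0.364 at Cebpe, exceeded 89.5%. Boundaries were at the same bin at 7 of the 12, 1 bin higher in EACBE-/- at 4 and 1 bin lower at 1.

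**Figure D3:**
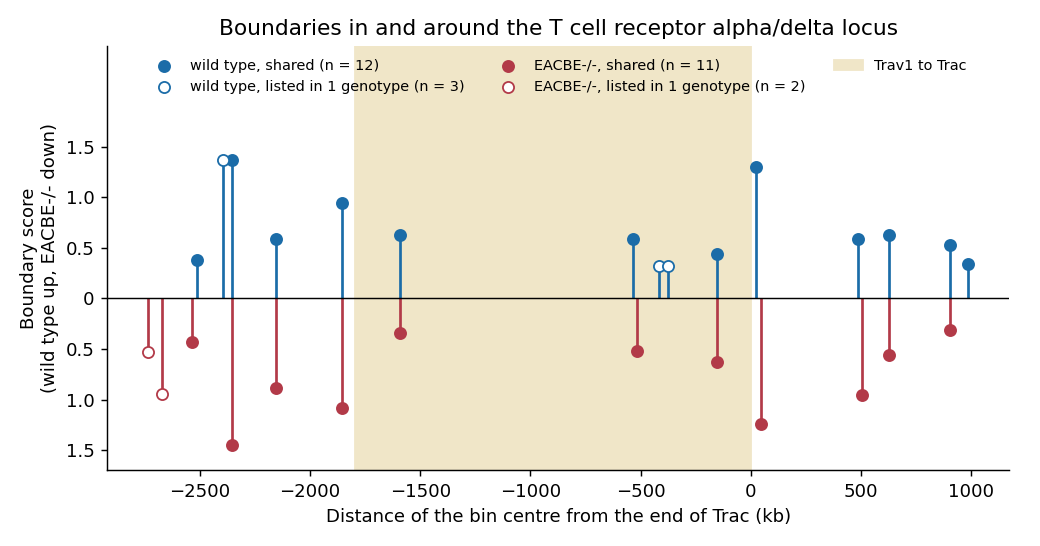
Boundary score (y axis, authors' units; wild type upward, EACBE-/- downward) against the distance of the bin centre from the end of Trac (x axis, kb), with Trav1 to Trac shaded; filled points are shared and open points are in 1 genotype's list. No boundary stands in the middle of the Trav array in either genotype, and a score above 1.2 stands just after Trac in both.

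Neighbouring shared boundaries were a median of 300 kb apart (quartiles 180 and 580 kb, range 20 to 3900 kb), against 220 kb over the whole wild-type list and 180 kb over the EACBE-/- list, as fewer entries leave wider gaps. Of the 237 gaps, 21 were 40 kb or less and 30 were over 1000 kb. The 3 longest held few genes. From 81.56 to 85.46 Mb, around the protocadherin gene Pcdh17, no boundary was shared over 3900 kb, although the wild-type list had 6 boundaries inside and the EACBE-/- list 23. From 8.50 to 11.28 Mb the gap covered Cfap20dc and Fhit, a large gene at a common fragile site, with 6 and 8 boundaries inside. From 87.16 to 89.92 Mb it covered Tdrd3 and the protocadherin gene Pcdh20, with 6 and 12 inside.

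Sharing varied along the chromosome with the density of genes. In windows of 5 Mb, 16 of 17 wild-type boundaries were shared from 30 to 35 Mb and 13 of 14 from 15 to 20 Mb, against 1 of 13 from 80 to 85 Mb. The 13 windows with at least 53 protein-coding and lncRNA genes held 224 wild-type boundaries, of which 159 were shared, or 71.0% (Wilson interval 64.7 to 76.5%). The 12 windows with fewer genes held 176, of which 79 were shared, or 44.9% (37.7 to 52.3%). In the EACBE-/- list the shares were 59.2 and 29.7%. Boundaries of 1 window lie near each other in the same 2 libraries, so these intervals understate the error. The window from 15 to 20 Mb, with 38 genes, stood apart from the other gene-poor windows in its share.

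**Figure D4:**
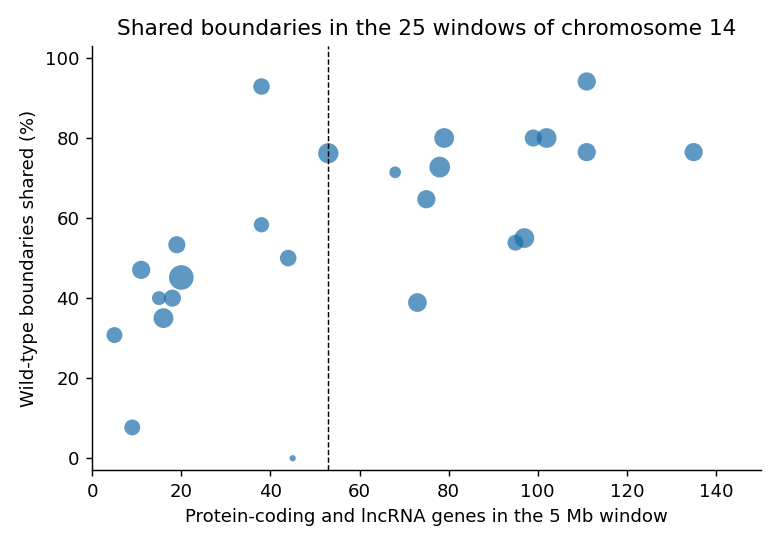
Percent of wild-type boundaries that were shared (y axis) against the number of protein-coding and lncRNA genes (x axis) in each of the 25 windows of 5 Mb; point area grows with the number of wild-type boundaries, and the dashed line marks the median of 53 genes. Windows to the right of the line lie mostly above 50%, and those to the left mostly at or below it.

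Genes also lay in the shared bins themselves more often than in bins at large. A start of the RefSeq promoter table fell in 52 of the 238 shared bins (21.8%, Wilson interval 17.1 to 27.5%), against 15.4% of all bins, 9.26% of the 162 unshared wild-type bins and 10.8% of the 296 unshared EACBE-/- bins. For starts of protein-coding genes the count was 36 (15.1%), against 10.1% of all bins. The promoter table lists starts for 675 of the 851 protein-coding genes, so gene ends from the full gene table were counted too. Either end of a protein-coding or lncRNA gene fell in 96 shared bins (40.3%), against 28.1% of all bins and 21.0 and 19.9% of the unshared wild-type and EACBE-/- bins. A gene of any kind overlapped 178 shared bins (74.8%), against 63.5% of all bins, 53.1% of the unshared wild-type bins and 51.0% of the unshared EACBE-/- bins. Unshared boundaries of both lists were thus below the chromosome's level and shared ones above it.

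The surroundings of the shared bins were also richer in genes than the chromosome at large. Shared bins held 0.735 gene ends on average, and the 20 bins within 200 kb on either side held 0.559 to 0.815, with a median of 0.649. The boundary bin was above 19 of the 20 flanking positions, and the position 40 kb to the right was above it. Around unshared boundaries the bins held 0.290 gene ends in wild type and 0.318 in EACBE-/-, with flanking medians of 0.321 and 0.311, against 0.473 over all bins. All 20 flanking positions of the shared boundaries lay above the mean of all bins. The value at the boundary bin lay inside the range of the flanking positions, and whether it exceeds them was not tested.

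**Figure D5:**
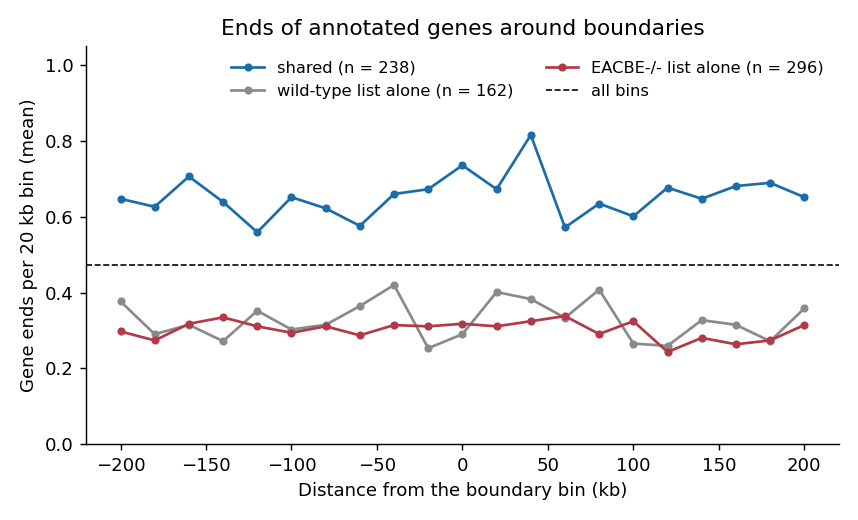
Mean number of ends of protein-coding and lncRNA genes per bin of 20 kb (y axis) at distances of up to 200 kb from the boundary bin (x axis), for shared boundaries and those in 1 list alone, with the mean of all bins dashed. The shared line lies above the dashed line and both other lines below it at every distance shown.

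In the 52 shared bins with a listed start, 69 genes started, 46 of them protein-coding, at 79 starts. Of the 69 genes, 16 (23.2%) belonged to head-to-head pairs, with starts on opposite strands at most 1000 bases apart, against 13.7% of the 1092 genes with a start on the chromosome. Eaf1, an elongation factor partner, and Mettl6, a tRNA methyltransferase, started 39 bases apart in a bin at 31.48 Mb that scored 0.929 in wild type and 1.00 in EACBE-/-. Btd, which encodes the biotin-recycling enzyme biotinidase, and Hacl1, a peroxisomal lyase, started 92 bases apart at 31.64 Mb, with 1.13 and 1.20. Oxnad1 and Dph3, which acts in diphthamide synthesis, started 36 bases apart at 32.08 Mb, with 0.504 and 0.635. These 3 bins lie within 1 Mb of each other in a window where 16 of 17 boundaries were shared.

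The promoter windows in shared bins resembled those of the whole chromosome in most respects. Protein-coding windows held a median of 13 CpG in shared bins (52 windows) and 9 overall (863 windows), with 54.5 and 54.7% G+C. The GC box was present in 29.1% of the 79 windows against 29.9% of all 1358, the ETS core in 8.86 against 7.36%, and the CCAAT box in 46.8 against 34.2%. The windows of gene pairs overlap and are not independent. A CTCF core consensus had no match in the 79 windows and 2 matches in all 1358, and a looser form matched 6.33 and 6.77%. A window of 300 bases is a small piece of a bin of 20000, so no match says only that these letters are not in this window.

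The gene lists of the tissue were placed by their distance to the nearest shared bin. Over all 2328 RefSeq genes of the chromosome, 20.1% lay in or within 1 bin of a shared bin, and over the 851 protein-coding genes 27.8%. Of 17 thymocyte and T cell genes 3 did. Ripk3, a kinase of necroptosis, lay in a bin at 55.78 Mb that scored 0.746 in wild type and 0.937 in EACBE-/-. Rb1, the retinoblastoma gene, reached a bin at 73.32 Mb with 0.708 and 0.757. Zmiz1, a transcriptional coregulator, covered a bin at 25.62 Mb with 1.17 and 0.966. Of the 13 Tcra neighbours on the chromosome 2 did, Dad1 and Abhd4.

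Of 20 broadly expressed genes 5 lay that close: Dad1, Psmd6, Xpo7, a nuclear export receptor, Polr3d, a subunit of RNA polymerase III, and Rpp14, a subunit of RNase P. The marker lists of other cells gave 1 of 9 mast and cytotoxic cell genes (Cma1), both B cell genes (Blk and Wdfy4), 1 of 3 heart muscle genes (Gata4) and 3 of 10 nerve cell genes (Pcdh9, Zic2 and Zic5). With so few genes in a list, none of these counts sets a list apart from the 27.8% of protein-coding genes. Among the 128 V segments of the chromosome, 10 lay in or within 1 bin of a shared bin, against 20.1% of all RefSeq genes. None of the 53 J segments did. All 53 J segments lay between the shared boundaries at 54.06 and 54.24 Mb, and 94 V segments between those at 52.62 and 53.68 Mb. Neighbouring segments are therefore not separate observations.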

How the data were processed

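Of the 40 samples in the series, the 2 Hi-C libraries were used, and 38 were not analysed here. The authors deposited 1 boundary list for each genotype on mm10, with intervals of 20000 bases and a boundary score each, per the file headers. The headers also carry the settings is 120001, nt 0.3, ids 40001 and ss 1, which they do not define. For the caller and the scaling between lists, nothing is given in the sources used here. Such scores can depend on sequencing depth and bin size, so lists of different depth can differ in length and level. The submitters' processing notes name HiC-Pro 2.11.1, Juicer 1.13.02, Bowtie2 2.20.8 and 2.3.4.3, bedtools 2.26.0 and cutadapt 0.4.4 for the series, without saying for which step.

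Each wild-type boundary was paired with the nearest EACBE-/- start, at ties the higher-scoring, and shared if within 20000 bases. Genes came from RefSeq GRCm38.p6, promoter starts from an incomplete table (3 of 51 protein-coding genes from 65 to 70 Mb have one), so gene ends were used for windows, and the nearest gene was taken by its body rather than its start. Motifs were matched on both strands. Named boundaries were the 10 highest and 5 lowest wild-type scores, the 5 largest differences each way, all within 1000000 bases of Tcra, and the 3 longest gaps. Printed promoters were chosen after their values were seen. With 1 library for each genotype no test was run. Wilson and order-statistic intervals are at 95% and cover counting error only. Pairing was tested on simulated data with widely spaced boundaries. Runs of neighbouring bins and partners used more than once, which occur in the real lists, were not part of that test. The boundaries, gene lists and rules were chosen with earlier results of these data known. Python 3.11.15, numpy 2.4.6, pandas 2.3.3, scipy 1.17.1 and matplotlib 3.10.9 were used.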

Additional observations from a re-analysis of the deposited data

How the results depend on the processing

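Of 25 alternatives run over the 6 results, 18 stayed within the interval or range of the reported value, 7 moved and 0 reversed. Reversal means a change of sign, so only the score difference could reverse, as the other results are positive by construction. The range for the number of shared boundaries was a wide fixed band, which took in 278 for starts within 40000 bases. With identical starts required, 132 boundaries were shared and their median spacing was 460 kb. With scores at or above each list's median required, 148 were shared. With scores divided by each list's median, the median difference was 0.149 in units of the list median. It is counted among the 7 that moved, but its unit differs from that of the reported 0.0555, so the values cannot be compared directly. The share of shared bins with a gene start was 15.1% for protein-coding genes, 47.9% with 1 bin added on either side and 40.3% for either gene end, the last added after seeing the data, and each moves by construction with what is counted. Counting neighbouring bins of equal score once, also added later, gave a median difference of 0.0638. A match of the CTCF consensus over whole bins, listed as an outcome with 2 alternatives, was not run, because no genome sequence was used here. No paired analysis was possible because each genotype has 1 Hi-C library. The depth behind the scores is unknown, and the score minimum hides whether an unshared boundary is absent or just under it in the other genotype.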

Other observations

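Some of the strongest boundaries of the wild-type list were not shared. The highest score of that list, 3.06 at 41.64 Mb, had its nearest EACBE-/- boundary 100 kb away with a score of 0.481. At 41.34 Mb, on the other side of the shared boundary at 41.48 Mb, a wild-type boundary scored 1.62, and the nearest EACBE-/- boundary, also 100 kb away, scored 1.21. At 4.32 and 4.36 Mb the wild-type list had a pair of entries with a score of 2.83, and the EACBE-/- list had no boundary from 0 to 5 Mb. At 6.80 Mb a wild-type score of 2.22 stood 100 kb from an EACBE-/- score of 2.47, next to the shared bins at 6.92 to 6.96 Mb, where EACBE-/- scored 2.71.

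Small RNA genes showed no crowding at shared bins. None of the 12 tRNA genes of the chromosome lay in or within 1 bin of a shared bin, and 9 of the 43 miRNA genes did, against 20.1% of all RefSeq genes.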
